A study of Mus musculus with 4 samples.

Results

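The genes described here are 10 mouse genes of blood coagulation and plasminogen activation: F3, Tfpi, Tfpi2, F13a1, F2r, Thbd, Procr, Plat, Plau and Plaur. They were taken by name, with earlier results of these data known, and their probes are the array probes whose RefSeq accession belongs to one of these symbols. This gave 14 probes of the 56605 on the array and 10 of the 22911 gene symbols that a RefSeq accession could name. RNA was measured on 4 one-color Agilent arrays, 2 for ID8G cells and 2 for GO2 cells. ID8G cells are the ID8 mouse ovarian cancer line carrying GFP from a retrovirus, and served as the parental line. GO2 cells came from ID8G cells that had grown in the peritoneal cavity of female C57BL/6J mice, were sorted from omental tumors as CD45- GFP+ cells, cultured, injected again, and sorted and cultured a second time. Both lines therefore carry GFP and were grown in the same medium with FBS, insulin, transferrin and sodium selenite before RNA extraction, and GO2 is 1 selected line. The labels do not say whether the arrays of a line came from separate cultures, so p-values measure the spread between these arrays, which may be technical. The comparison addresses how expression of these genes differed between cells selected by growth in the omentum and the cells they came from.

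Coagulation begins when tissue factor on a cell surface binds factor VII, which leads to thrombin and then to fibrin. Tissue factor pathway inhibitors block the first step, thrombomodulin and the endothelial protein C receptor turn thrombin toward activating the anticoagulant protein C, and factor XIII crosslinks fibrin once it has formed. Plasminogen activators convert plasminogen to plasmin, which dissolves fibrin and matrix proteins, and the urokinase receptor holds 1 of these activators at the cell surface. Tumor cells are known to make several of these proteins, and carcinoma in the peritoneal cavity is a setting in which fibrin is laid down.

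A level is the log2 intensity of a probe after subtracting its array's 75th percentile, so 0 is the intensity that 75% of probes do not reach, and a difference is the GO2 mean minus the ID8G mean of that level. Probes respond to their targets to different degrees, so levels were compared between cell lines for 1 probe and not between genes. Testing was limited to probes with a signal well above background on the full pair of arrays of 1 line or of both, and a gene, read from its brightest tested probe, was called higher or lower at an adjusted p below 0.05 in limma together with a difference of at least 2-fold. "Rose" and "fell" are used of called genes only. The intensity at this percentile was 675 and 668 for ID8G and 635 and 627 for GO2, and 27502 to 28841 probes per array were well above background. The ID8G arrays lay in 1 row of the slide and the GO2 arrays in the other, so slide position and cell line cannot be told apart. In these bulk RNA samples, fewer cells of a kind and less RNA per cell cannot be told apart either.

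The labelled cell type was checked against lists of markers. Of 12 ovarian surface and mesothelial markers, 10 were tested, among them Krt8, Krt18, Msln and Wt1, and Krt7 was not well above background on any array. Their summed linear level, in multiples of the 75th percentile, was 665 to 672 in ID8G and 383 to 387 in GO2. Most of this sum was Krt18, Krt19 and Krt8. Krt19 fell by 1.65 on the log2 scale and Upk3b rose by 1.08. Krt18 differed by -0.81, Msln by -0.82 and Krt8 by -0.55, all short of 2-fold, and Wt1 by -0.10 with overlapping arrays. Bnc1 differed by 0.60 (adjusted p = 0.00497) and was not called. Upk1b (-0.01), Lrrn4 (-0.04) and Cdh1 (-0.34) did not pass the test. Endothelial cells are the usual source of several of the genes described here, and Cdh5, Kdr, Tek, Tie1, Emcn, Vwf, Erg and Cldn5, 8 of the 12 endothelial markers, were not well above background on any array. Of the other 4, Robo4 fell, at least 5.29-fold (adjusted p = 0.00252), and was not well above background in GO2, while Esam (-0.68), Egfl7 (0.97) and Pecam1 (0.08) were measured on all 4 arrays and not called. No signal well above background on any array was found for 8 of 12 macrophage markers, including Ptprc, Adgre1 and Lyz2, and for 5 of 7 platelet and megakaryocyte markers, including Pf4 and Itga2b. The summed level of the endothelial list was 3.45 to 3.80 in ID8G and 2.70 to 2.83 in GO2, that of the macrophage list was 20.8 to 23.6 and 20.8 to 20.9, and that of the platelet list was 0.274 to 0.300 and 0.211 to 0.218. Most of the macrophage sum was 1 Itgam probe, with log2 levels of 4.18 and 4.39 in ID8G and 4.13 and 4.17 in GO2. The other Itgam probe was well above background on 1 GO2 array only. The summed fibroblast list was 105 to 106 in ID8G and 168 to 169 in GO2. Col1a2, Col1a1 and Pdgfra rose, by 7.49, 4.69 and 3.70 on the log2 scale, while Dcn differed by -0.63 (adjusted p = 0.00309) and Pdpn by 0.09, neither called, and Lum, Thy1 and Fap were not well above background on any array. What these marker differences contribute to the values below was not tested.

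The sequences upstream of 5 members are shown because F13a1 had the largest difference of the set and because F3, F2r, Plaur and Procr share 1 sequence element. Each is the 250 bases before a start site annotated by RefSeq on GRCm38.p6, written 5′ to 3′ on the strand of the gene. Capitals mark every match, on either strand, to the AP-1 element TGACTCA, the GC box GGGCGG, the TATA box TATAAA, the ETS element GGAAGT or the GATA element AGATAA, of which neighboring GC boxes overlap in Plaur. F13a1 has 2 annotated starts, at chr13:37050245-37050494 and chr13:37049214-37049463, both on the minus strand. F3 is at chr3:121723287-121723536 on the plus strand, F2r at chr13:95618467-95618716 on the minus strand, Plaur at chr7:24462233-24462482 on the plus strand and Procr at chr2:155750967-155751216 on the plus strand.
F13a1, window 1: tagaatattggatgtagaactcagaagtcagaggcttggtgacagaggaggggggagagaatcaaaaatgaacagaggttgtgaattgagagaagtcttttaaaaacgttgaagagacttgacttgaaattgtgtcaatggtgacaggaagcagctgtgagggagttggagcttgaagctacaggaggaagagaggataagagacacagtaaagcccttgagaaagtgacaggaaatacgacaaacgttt
F13a1, window 2: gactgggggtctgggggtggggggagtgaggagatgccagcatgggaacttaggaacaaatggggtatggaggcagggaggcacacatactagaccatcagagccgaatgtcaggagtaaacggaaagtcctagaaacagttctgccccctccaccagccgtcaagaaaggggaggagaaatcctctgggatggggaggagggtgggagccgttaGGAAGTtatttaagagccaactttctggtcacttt
F3: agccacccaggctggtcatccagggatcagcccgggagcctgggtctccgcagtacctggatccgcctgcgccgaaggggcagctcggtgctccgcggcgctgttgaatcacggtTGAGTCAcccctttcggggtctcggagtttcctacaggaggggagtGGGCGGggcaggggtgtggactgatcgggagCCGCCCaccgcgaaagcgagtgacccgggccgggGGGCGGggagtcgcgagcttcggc
F2r: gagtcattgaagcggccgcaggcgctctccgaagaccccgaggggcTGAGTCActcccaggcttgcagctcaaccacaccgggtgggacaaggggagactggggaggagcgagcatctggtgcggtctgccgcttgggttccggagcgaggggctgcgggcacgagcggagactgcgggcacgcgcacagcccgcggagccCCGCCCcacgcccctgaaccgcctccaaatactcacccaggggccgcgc
Plaur: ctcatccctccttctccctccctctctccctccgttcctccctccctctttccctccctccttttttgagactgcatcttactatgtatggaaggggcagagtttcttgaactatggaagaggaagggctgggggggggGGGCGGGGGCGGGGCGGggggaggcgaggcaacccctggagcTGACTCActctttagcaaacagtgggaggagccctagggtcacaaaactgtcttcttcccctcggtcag
Procr: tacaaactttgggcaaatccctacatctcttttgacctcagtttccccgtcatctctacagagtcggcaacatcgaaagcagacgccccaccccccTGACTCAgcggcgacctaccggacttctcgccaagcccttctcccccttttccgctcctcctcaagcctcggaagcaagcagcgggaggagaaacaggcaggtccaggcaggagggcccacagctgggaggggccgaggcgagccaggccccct

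Windows were found for 7 of the 10 members, 11 windows in all. Tfpi, Tfpi2 and F13a1 have more than 1 window each, and windows 1 and 2 of Tfpi2 overlap. The AP-1 letters were in 1 window each of F3, F2r, Plaur and Procr, 4 of the 11 windows, and in 4.46% of all 32851 windows of the same length. Counted back from the start site, the match begins at base -135 in F3, -204 in F2r, -69 in Plaur and -154 in Procr. The GC box was in 6 of the 11 windows and 32.74% of all windows, the TATA box in 1 and 12.37%, the ETS element in 4 and 19.74%, and the GATA element in 1 and 9.99%. The first F13a1 window held none of the 5 elements and the second held an ETS element at base -35. These matches describe the sequence and not the binding of a factor. Of the genes with AP-1 letters, F3 (-0.43), Plaur (-0.53) and F2r (-0.12) had differences below 0 and Procr (0.51) above 0. None of them was called, and a relation to the element was not tested.

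Of the 10 members, 9 had a tested probe. Thbd rose, F13a1 fell, and the other 7 were not called. Over all 13215 genes tested, 5.98% were called higher and 3.94% lower. An adjusted p below 0.05, with no minimum size, was reached by 6 of the 9 members and by 41.0% of all genes tested (21.0% higher and 20.0% lower). Of the 9, 6 had a difference below 0 and 3 above, with a median of -0.15, against a median of -0.00041 over all genes tested. Only 7 of the 9 were measured on all 4 arrays. F13a1 was tested through ID8G alone and Tfpi through GO2 alone, so the filter favored the direction seen in each. The arrays of the 2 lines did not overlap for 8 of the 9, and did not overlap for 78.4% of the 13206 tested genes with a value on every array, so separation of the arrays was the usual state of a gene here. With 2 arrays against 2, an exact permutation test of 1 gene cannot give a p below 0.333, and all p-values rest on limma's variance shared across probes.

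**Figure D1:**
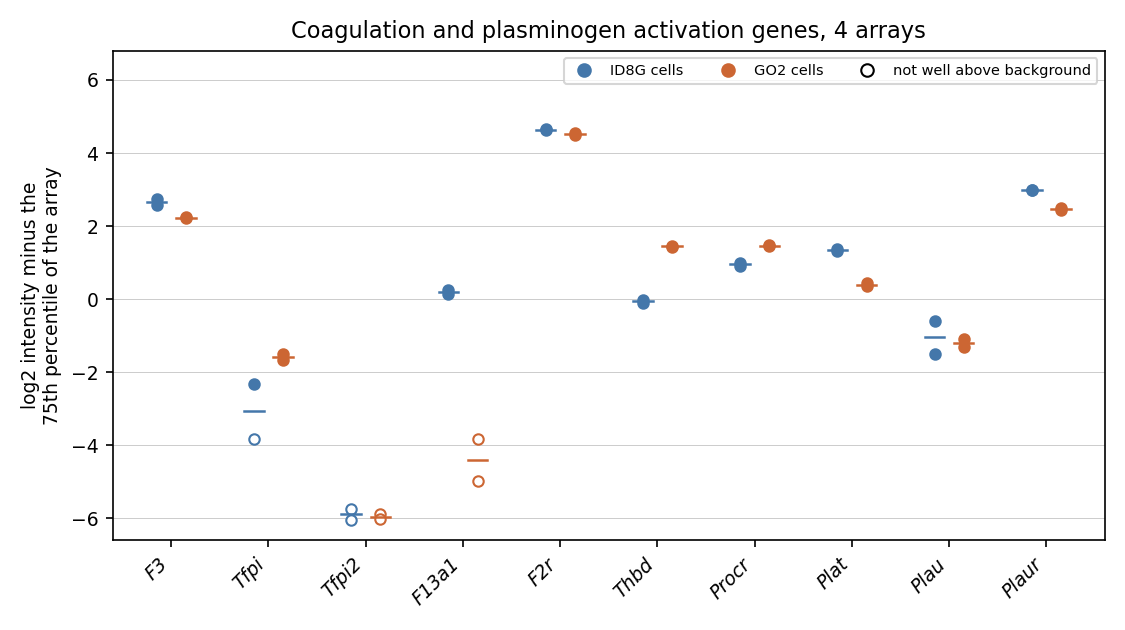
Level of each of the 10 genes on each array, on the log2 scale relative to the 75th percentile, with ID8G and GO2 arrays in different colors and open circles for values not well above background. F13a1 is above the percentile on both ID8G arrays and open on both GO2 arrays, Thbd is higher on both GO2 arrays, and Tfpi2 is open on all 4.

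F3 encodes tissue factor, the cell surface receptor that starts coagulation. Its levels were 2.56 and 2.75 in ID8G and 2.21 and 2.25 in GO2. Both ID8G arrays were above both GO2 arrays. The difference was -0.43 (SE 0.08, 95% interval -0.65 to -0.20, adjusted p = 0.0237), a 1.34-fold lower level in GO2 that did not reach 2-fold. Among the 12303 genes measured on all 4 arrays, 21.2% had a larger absolute difference.

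Tfpi encodes the inhibitor of tissue factor and factor Xa, and its brightest probe gave levels of -2.32 and -3.82 in ID8G and -1.67 and -1.50 in GO2. Both GO2 arrays were higher, but 1 ID8G array was not well above background and the ID8G arrays lay far apart (SD 1.06, against 0.12 in GO2). The difference of 1.48 (SE 0.53, 95% interval 0.03 to 2.93, adjusted p = 0.0994) was not called. Without ID8G replicate 1 it was 2.23 and called (adjusted p = 0.00287), and without ID8G replicate 2 it was 0.73 and not called. It was also called, at 1.27, with spike-in scaling (adjusted p = 0.0141), and with a variance that follows intensity (adjusted p = 0.0166). Of the other Tfpi probes, 1 was well above background on a single GO2 array and 1 on none, and neither was tested. Tfpi2, a related inhibitor that also blocks plasmin, had levels of -5.76 and -6.04 in ID8G and -5.88 and -6.02 in GO2. None of these was well above background, so Tfpi2 was not tested.

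F13a1 encodes the A subunit of factor XIII, the transglutaminase that crosslinks fibrin and is best known from platelets and macrophages. Its levels were 0.24 and 0.14 in ID8G and -3.82 and -4.97 in GO2, where neither array had it well above background. The ID8G arrays were close to each other and far above the GO2 arrays. F13a1 fell, with a fitted difference of -4.58 (SE 0.41, adjusted p = 0.00352), and since GO2 gave only an upper limit, the level in GO2 was at least 16.0-fold lower. This bound sets the ID8G mean against the lowest signal well above background on each GO2 array, or the probe's own signal where higher. A second F13a1 probe of the same transcript was not well above background on any array, at -5.78 and -6.06 in ID8G and -5.93 and -6.01 in GO2, so the call rests on 1 of 2 probes. The call was lost when only genes well above background on all 4 arrays were tested, since F13a1 is then not among them. Of 12 macrophage markers, Csf1r, Itgam and Cd68 each had a probe measured on every array and did not pass the test, C1qb was well above background on both ID8G arrays and neither GO2 array (difference -0.61, adjusted p = 0.0442, not called), and the other 8 were so on none. Of 7 platelet markers, Gp1bb was well above background on both ID8G arrays and neither GO2 array and fell, at least 1.24-fold (adjusted p = 0.0128). The fitted difference was -1.42, but this bound is short of 2-fold, and a second Gp1bb probe was not well above background on any array. Gp6 was well above background on 1 ID8G array, and the other 5 platelet markers on none. The part of these cells in the F13a1 difference was not tested.

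F2r encodes the thrombin receptor PAR1, which thrombin activates by cutting. Its levels were 4.63 and 4.66 in ID8G and 4.53 and 4.51 in GO2. The ID8G arrays were both slightly higher, and the difference of -0.12 (SE 0.05, 95% interval -0.27 to 0.02) did not pass the test (adjusted p = 0.139). The interval places any difference of this probe well inside 2-fold in either direction.

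Thbd and Procr act together on thrombin and protein C. Thbd encodes thrombomodulin, which binds thrombin and makes it an activator of protein C. Its levels were -0.10 and -0.01 in ID8G and 1.44 on both GO2 arrays. Thbd rose by 1.50 on the log2 scale (SE 0.06, 95% interval 1.34 to 1.65, adjusted p = 0.000485), or 2.82-fold, and the GO2 arrays were far above the ID8G arrays. Only 3.27% of the genes measured on all 4 arrays had a larger absolute difference.

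Procr encodes the endothelial protein C receptor, which presents protein C to thrombomodulin. Levels of 0.99 and 0.92 in ID8G stood against 1.45 and 1.48 in GO2. The arrays did not overlap, and the difference of 0.51 (SE 0.06, 95% interval 0.35 to 0.66, adjusted p = 0.00621) was 1.42-fold and not called. A larger absolute difference was seen for 16.7% of genes measured on all 4 arrays. Both genes of this receptor pair were thus higher in GO2, Thbd past 2-fold and Procr short of it, and the difference between them was not tested.

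**Figure D2:**
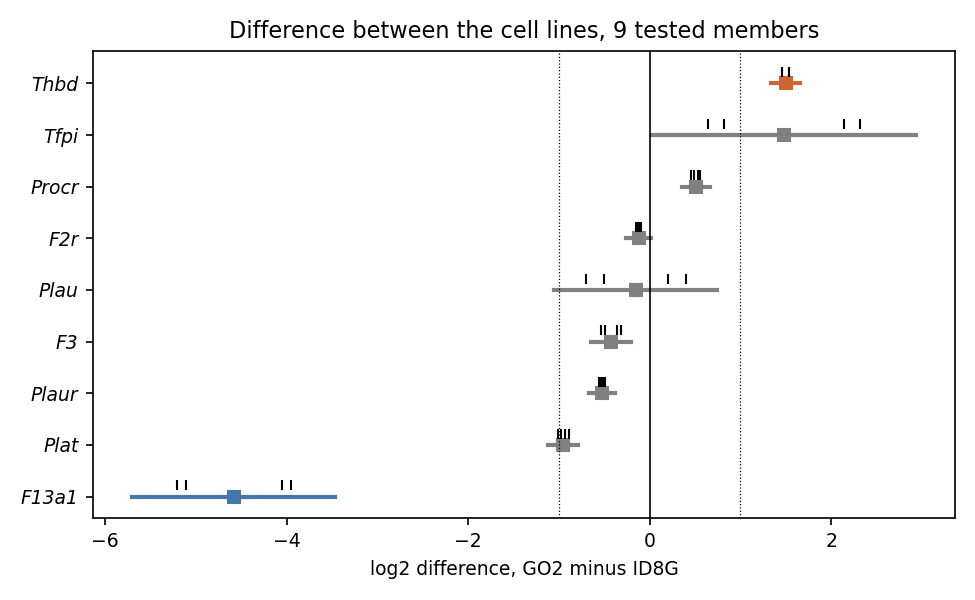
Difference of each of the 9 tested genes, GO2 minus ID8G on the log2 scale, with bars for the 95% interval of the limma fit and dotted lines at 2-fold. Thbd lies above 2-fold and F13a1 below it, Plat lies just short of 2-fold, and the intervals of Tfpi and Plau are wide.

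Plat encodes tissue-type plasminogen activator, which acts mainly on fibrin. Its levels were 1.32 and 1.36 in ID8G and 0.43 and 0.35 in GO2. The GO2 arrays were both lower, and the difference of -0.95 (SE 0.06, 95% interval -1.11 to -0.79, adjusted p = 0.00142) was 1.93-fold, just short of the 2-fold limit. With levels scaled to spike-in controls instead of the 75th percentile, the difference was -1.16 and was called. A larger absolute difference was seen for 7.02% of genes.

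Plau encodes urokinase, the activator that works at the cell surface. Its levels were -1.50 and -0.59 in ID8G and -1.10 and -1.30 in GO2. The 2 lines overlapped, since the GO2 values lay between those of ID8G, and the difference of -0.15 (SE 0.33, 95% interval -1.05 to 0.75) did not pass the test (adjusted p = 0.741). The interval still allows about 2-fold less Plau in GO2. Without ID8G replicate 1 the difference was -0.61 and without ID8G replicate 2 it was 0.30, both short of 2-fold, so the direction depended on which ID8G array was kept. A second Plau probe was not well above background on any array, with levels from -6.03 to -5.73.

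Plaur encodes the urokinase receptor uPAR. Its levels were 3.00 and 2.98 in ID8G and 2.48 and 2.44 in GO2. Both GO2 arrays were lower by more than the arrays of a line differed from each other, and the difference was -0.53 (SE 0.05, 95% interval -0.67 to -0.38, adjusted p = 0.00457), or 1.44-fold, and not called. For 15.9% of genes measured on all 4 arrays the absolute difference was larger. Of the 3 genes of plasminogen activation, Plat and Plaur were thus lower in GO2 by less than 2-fold, while the difference of Plau did not pass the test.

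**Figure D3:**
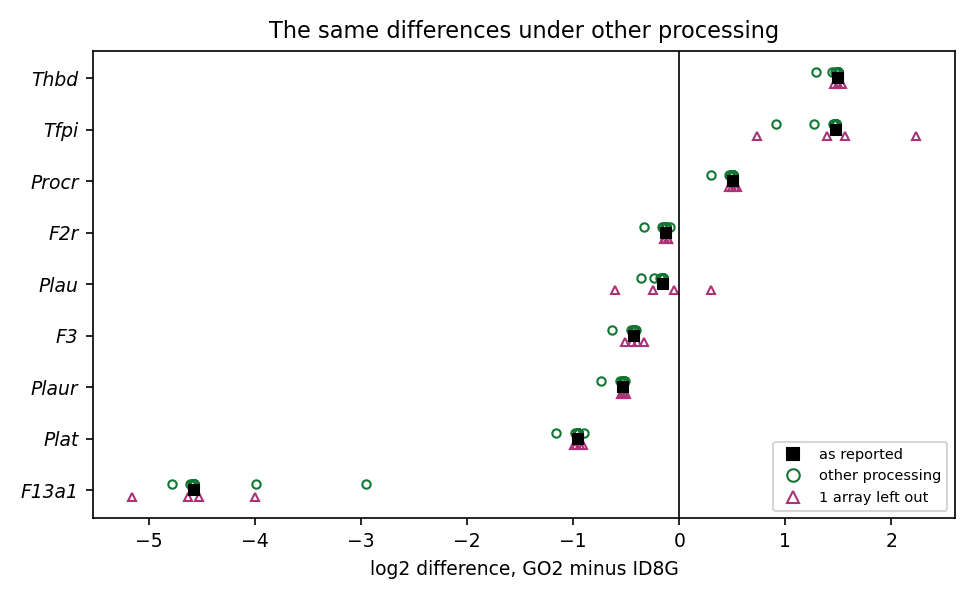
Difference of each tested gene, GO2 minus ID8G on the log2 scale, as reported (squares), under other processing (circles) and with 1 array left out (triangles). Thbd stays between 1.29 and 1.54 and F13a1 between -5.16 and -2.96, while Tfpi runs from 0.73 to 2.23 and Plau crosses 0.

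Other genes of coagulation and fibrinolysis were taken as a list of 55, all of which had a probe. Of these, 21 were tested and 28 were not well above background on any array, among them the liver-made factors F2, F5, F7, F10, Plg and the fibrinogen chains Fga, Fgb and Fgg. Among the 21, 6 rose, 4 fell and 11 were not called. Over all genes tested, 5.98% were called higher and 3.94% lower, shares that also apply beside the counts by role below. Of the called genes, Kng2 was tested through ID8G alone and Serpine2 through GO2 alone. With only probes well above background on all 4 arrays, 5 rose and 3 fell. The differences were above 0 for 15 and below 0 for 6, with a median of 0.13. Over all genes tested, 6600 were above 0 and 6615 below. With spike-in scaling, which lowers every difference by about the same amount, Vkorc1, Anxa5, Anxa2 and Tgm3 changed from above 0 to below 0.

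**Figure D4:**
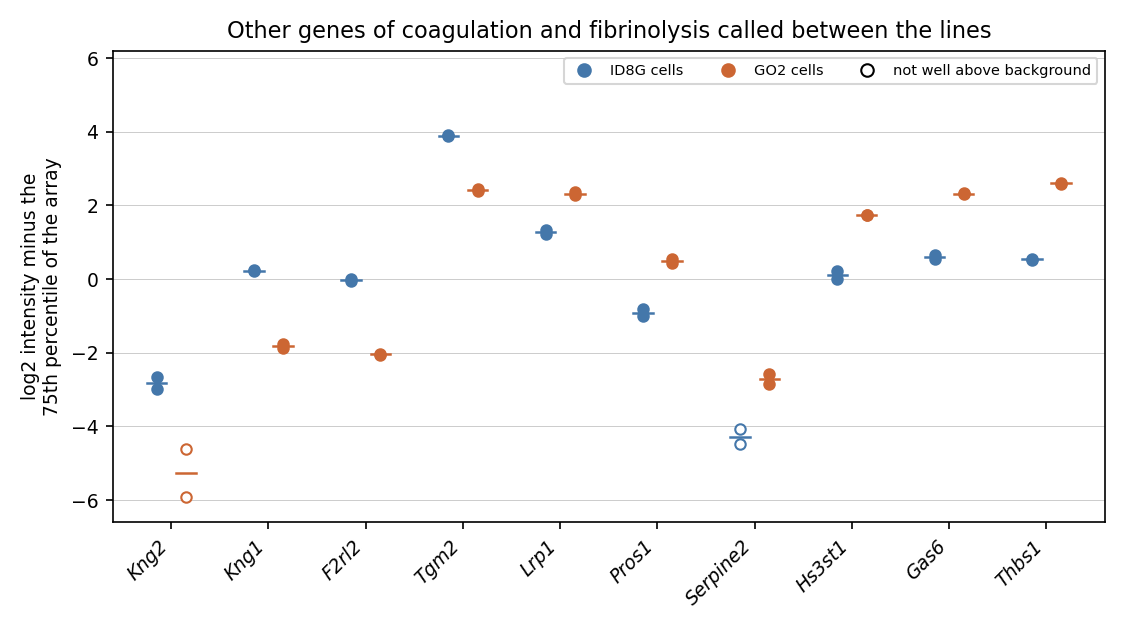
Level on each array of the 10 genes of the wider list that were called, on the log2 scale relative to the 75th percentile, with open circles for values not well above background. Kng1, Kng2, F2rl2 and Tgm2 are lower in GO2, and Pros1, Gas6, Hs3st1, Lrp1, Serpine2 and Thbs1 are higher.

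Among the genes listed as anticoagulant, 5 of 11 were tested, 3 rose and none fell. Gas6 is counted among these 3, although it is best known for another role. Pros1, which encodes protein S, the cofactor of activated protein C, had levels of -0.81 and -1.01 in ID8G and 0.54 and 0.43 in GO2, and rose by 1.40 (SE 0.09, adjusted p = 0.00168), or 2.63-fold. A second Pros1 probe was not well above background in ID8G and was tested through GO2 alone, and its bound was at least 1.43-fold higher. Gas6, related to protein S in sequence but best known as a ligand of the Axl, Tyro3 and Mertk receptors, had levels of 0.54 and 0.65 in ID8G and 2.33 and 2.31 in GO2, and rose by 1.73 (SE 0.06, adjusted p = 0.000429), or 3.31-fold. Hs3st1 makes the heparan sulfate motif that antithrombin binds. Its levels were -0.01 and 0.23 in ID8G and 1.73 on both GO2 arrays, a difference of 1.62 (SE 0.10, adjusted p = 0.00127), or 3.07-fold. In each of these genes every GO2 array was above every ID8G array. Anxa5, which binds phosphatidylserine, differed by 0.06 and did not pass the test (adjusted p = 0.432). Entpd1, the ectonucleotidase CD39 that breaks down ADP, was dim and not well above background in GO2, where it was at least 1.14-fold lower. Its fitted difference of -0.80 (adjusted p = 0.0272) was not called. That difference was -1.01 and called with spike-in scaling, but -0.19 with a floor under dim signals and -0.30 with normexp background correction.

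Among coagulation factors and their helpers, 6 of 20 were tested, none rose and 2 fell. Kng1 encodes kininogen, the source of bradykinin and a carrier of the contact factors. It had levels of 0.24 and 0.22 in ID8G and -1.87 and -1.77 in GO2, and fell by 2.05 (SE 0.06, adjusted p = 0.000314), or 4.15-fold. Its near-identical neighbor Kng2 was dim in both lines and not well above background in GO2, where it was at least 1.98-fold lower (adjusted p = 0.0232), and since their probes may read both genes, the share of each is uncertain. The Kng2 call was lost without ID8G replicate 1 (adjusted p = 0.0795) and without ID8G replicate 2 (adjusted p = 0.0611), with normexp background correction (-0.76), with a floor under dim signals (-0.98) and with no filter on dim probes (adjusted p = 0.0999). Mcfd2 and Lman1, the cargo receptor for factors V and VIII, differed by 0.62 (adjusted p = 0.00324) and 0.30 (adjusted p = 0.0204) and were not called, and another Lman1 probe gave -0.13. Vkorc1, which recycles vitamin K, differed by 0.20 and did not pass the test (adjusted p = 0.0599).

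Of the other 3 protease-activated receptors, F2rl1 and F2rl3 were not well above background on any array. F2rl2, which encodes PAR3, a thrombin receptor that serves other receptors as a cofactor, had levels of -0.04 and 0.01 in ID8G and -2.02 and -2.06 in GO2. It fell by 2.03 (SE 0.05, adjusted p = 0.000269), or 4.08-fold. The difference between these 2 receptors was not tested.

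Among genes that inhibit fibrinolysis, 2 of 7 were tested, and both rose, while 5.98% of all genes tested were called higher. Serpine2 was tested through GO2 alone, so a lower level in GO2 could hardly have been found for it. Serpine2, or protease nexin-1, inhibits thrombin and urokinase, and was not well above background in ID8G, with levels of -4.48 and -4.08 there and -2.57 and -2.85 in GO2. It was at least 1.96-fold higher in GO2 (adjusted p = 0.00629), and its difference was short of 2-fold with normexp (0.71) and with a floor under dim signals (0.97). Thbs1, the matrix protein thrombospondin-1, which also binds plasminogen and plasmin, had levels of 0.52 and 0.56 in ID8G and 2.62 and 2.59 in GO2, and rose by 2.07 (SE 0.05, adjusted p = 0.000248), or 4.19-fold. The second probe of Thbs1 gave 1.50.

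Among genes of plasminogen binding, activation and clearance, 5 of 10 were tested, 1 rose and none fell. Lrp1, the endocytic receptor that clears activator and inhibitor complexes, had levels of 1.33 and 1.22 in ID8G and 2.28 and 2.36 in GO2, a 2.06-fold rise (SE 0.07 on the log2 scale, adjusted p = 0.00155). It was short of 2-fold with normexp (0.99), with spike-in scaling (0.84) and without ID8G replicate 2 (0.99). S100a10, which with Anxa2 forms a plasminogen receptor, differed by 0.64 (adjusted p = 0.0029) and was not called, and Anxa2 differed by 0.07 and did not pass the test (adjusted p = 0.357). Eno1, a glycolytic enzyme that also binds plasminogen at the surface, differed by -0.36 (adjusted p = 0.0345) and was not called. Of the 4 transglutaminases other than factor XIII, 2 were tested. Tgm2, tissue transglutaminase, had levels of 3.91 and 3.88 in ID8G and 2.45 and 2.38 in GO2, and fell by 1.48 (SE 0.06, adjusted p = 0.000481), or 2.78-fold. Tgm3 differed by 0.13 and did not pass the test (adjusted p = 0.137). Of the tested crosslinking enzymes, Tgm2 and F13a1 fell, F13a1 being tested through ID8G alone, and Tgm3 was not called. Over all genes tested, 3.94% were called lower.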

How the data were processed

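RNA of ID8G and GO2 cells was hybridized to 4 one-color Agilent arrays, 2 per line. The authors' scanner files hold linear spot intensities, background-subtracted by Feature Extraction 11.5.1.1 (per the file headers) without normalization across arrays, and mark outliers, saturation and signal above background. In the deposited value table are log2 values, scaled by the authors to the 75th percentile, with the median of each probe set to 0. It differed by at most 0.00545 from values computed here and was used as 1 alternative. There were 0 unused value columns.

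Outlier spots were left out, spots of a probe averaged, and log2 intensities reduced by the 75th percentile of the array over probes that are not controls. Tested were the 28368 probes well above background on the full pair of arrays of 1 line or of both, with cell line as the only term, in limma 3.58.1 under R 4.3.3, two-sided with Benjamini-Hochberg adjustment over all tested probes. A call needed an adjusted p below 0.05 and an absolute log2 difference of at least 1. The fit was tested on simulated data. No probe was saturated, and the number of arrays limits the precision. Figures were drawn with matplotlib 3.10.9 in python 3.11.15.

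Symbols came from RefSeq accessions (32994 of 56605 probes matched) and upstream windows from a RefSeq table for GRCm38.p6. Named are all members with their probes, each called gene of the wider list, at most 3 further genes per role with the highest signal, and at most 3 per marker list, while further markers and undetected factors were named after their values were seen. The members, lists and sequence elements were chosen with earlier results of these data known. A gene of the wider list is not reported here and is left out of its counts. Replicate numbers did not pair the arrays (correlation of same-numbered deviations 0.027). The arrays lay on 1 slide with 1 scan. A total of 20 alternatives covered background correction, normalization, filters, probes, tests and left-out arrays.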

Additional observations from a re-analysis of the deposited data

How the results depend on the processing

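Reported counts were 1 member higher and 1 lower, and 6 higher and 4 lower genes of the wider list. A Welch t-test, which the study's methods name for comparing 2 groups but not for the arrays, called none of either. Over all 13211 genes it could test, it called 0 higher and 3 lower. At an unadjusted p below 0.05 the Welch t-test gave 1 member higher and 0 lower, and 6 and 3 of the wider list. The count over all genes at this unadjusted p was not taken. Limma's test against a minimum difference of 1 gave 3 and 3 of the wider list, losing the calls of Pros1, Lrp1, Serpine2 and Kng2. Over all 13215 genes it called 491 higher and 277 lower. With no minimum difference, 2 members were higher and 4 lower, as were 21.0% and 20.0% of all genes tested. Spike-in scaling gave 2 and 2 members, adding Tfpi and Plat. It moved the median of all genes from -0.00041 to -0.208 and the share of called genes that were higher from 60.3% to 48.6%, and it turned Vkorc1 to -0.0068, Anxa5 to -0.15, Anxa2 to -0.14 and Tgm3 to -0.079. Anxa2 was also turned by normexp, to -0.040. An intensity trend gave 2 members higher, adding Tfpi. The filter on all 4 arrays gave 0 members lower, since F13a1 was not tested. Leaving out 1 array gave 1 to 2 members higher, 1 to 1 lower, and 5 to 6 and 3 to 4 genes of the wider list, and gave Plau from -0.61 to 0.30, turned without ID8G replicate 2. With the replicate block, 1 member was higher and 1 lower, and 6 and 4 genes of the wider list, and no call of these genes changed. Of 169 member values under other settings, 158 kept their direction and side of the threshold, 8 newly passed, 2 were lost (F13a1 and Thbd, with the Welch t-test) and 1 was turned. Among the 8 were F3, Procr, Plat and Plaur with no minimum difference, a setting that drops the 2-fold limit. Of 358 values of the named genes of the wider list, 323 kept both, 6 newly passed, 24 were lost and 5 were turned. Mcfd2, Lman1 and Entpd1 were among those 6 through the same setting. The spike-ins themselves were higher in GO2 by 0.15 to 0.278. The causes were not tested. With 1 slide, a slide block could not be run.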
